A study of Mus musculus with 42 samples.

Results

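Mouse colonic organoids that had received IL-1 for 12 h were compared directly with organoids that had received IL-17A for the same time, to find the genes that tell the 2 cytokines apart. The comparison uses 6 of the 42 RNA sequencing libraries of the series, 3 with IL-1 (replicate numbers 1, 3 and 4) and 3 with IL-17A (the same numbers), chosen by their labels and not by their expression. All the organoids used here were wild type and grew in a medium with epidermal growth factor, Noggin, R-spondin, Wnt3a and CHIR. IL-1 was given as IL-1a together with IL-1b. The labels give 10 nM for IL-1 and 10 nM for IL-17A. They do not say whether the 10 nM of IL-1 was the total or the dose of each form. Untreated organoids labelled 12 h (3 libraries, numbers 1, 2 and 4) serve as the background, and organoids kept for 72 h with IL-1 or IL-17A (3 libraries each, numbers 1, 2 and 3) as the later time. The labels do not say whether a number stands for a separate animal, culture or day. The p-values rest on the spread between libraries, largely pooled over all genes, and that spread may be technical.

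IL-1 and IL-17A are both inflammatory cytokines that act directly on gut epithelial cells. IL-1α and IL-1β bind a receptor made of IL1R1 and IL1RAP, which recruits MYD88 and leads to the kinases that free NF-κB from its inhibitor IκBα. IL-17A binds a receptor made of IL17RA and IL17RC, which recruits the adaptor ACT1 (gene Traf3ip2), activates NF-κB and also prolongs the life of certain inflammatory mRNAs. Targets shared by both include neutrophil-attracting chemokines, IκBζ (gene Nfkbiz) and antimicrobial genes.

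Each library is a table of genes, expressed here in reads per 1000000 reads (RPM). The 6 cytokine libraries held 14815170 to 17665812 reads (median 17204170), so 1 RPM corresponds to 14.8 to 17.7 reads. Number 1 stood apart from numbers 3 and 4 in both cytokine groups by more than the cytokines differed. Principal component 1 held 65.4% of the variance of the 9 libraries of 12 h and put number 1 of IL-1 at -29.4 and of IL-17A at -31.6, against 23.7 to 27.2 for numbers 3 and 4 of both cytokines. Numbers 3 and 4 of each cytokine lay close together but differed by more than sampling noise, since the chi-square of their reads per degree of freedom was 3.03 for IL-1 and 3.32 for IL-17A. Between the cytokines it was 6.26 for number 3 and 6.0 for number 4, more than between numbers 3 and 4. The number was kept as a block, so that each IL-1 library was set against the IL-17A library of its own number. The reads of the control libraries numbered 2 and 4 equal, in all 14247 genes present at both times, those of 2 control libraries labelled 72 h (numbers 1 and 4). The time of these controls is therefore uncertain, and the direct comparison of the cytokines does not use them. No cytokine library of 12 h had equal reads with any library of 72 h in more than 2.08% of genes.

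**Figure D1:**
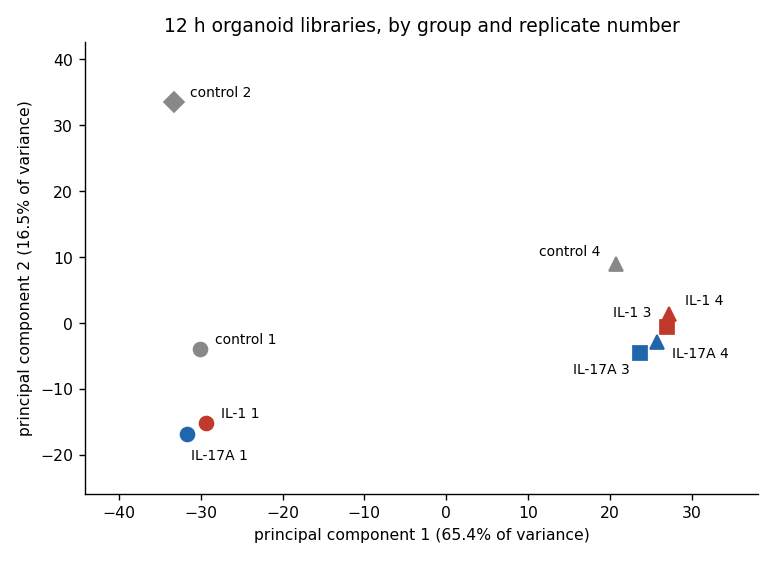
Principal components 1 and 2 (arbitrary units, share of variance on the axes) of the 9 libraries of 12 h, computed on log2(RPM + 1). Colors give the group and symbols the replicate number, as the labels name them. The libraries of number 1 and control 2 lie at the left, numbers 3 and 4 at the right, and among numbers 3 and 4 the libraries of 1 cytokine lie nearest each other.

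The organoids expressed the epithelial markers that were looked for. All 10 had a row, their summed level was 10380.7 to 11696.7 RPM with IL-1 and 10190.4 to 11810.4 with IL-17A, and none passed the test between the cytokines. Of 10 stromal markers 2 were listed (Pdgfrb and Vim, summed 6.9 to 21.8 with IL-1 and 6.7 to 23.2 with IL-17A), and of 6 endothelial markers 2 (Vwf and Pecam1, summed 3.7 to 6.3 and 3.7 to 5.1). Of 12 immune markers 4 were listed, summed 193.8 to 222.1 and 197.3 to 205.6. Nearly all of that sum was Ly6g, whereas Ptprc, the pan-leukocyte CD45, was at most 0.58 RPM. None of these that reached the level for testing passed between the cytokines.

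Among 12184 genes with a mean of at least 1 RPM, 10 separated IL-1 from IL-17A by a log2 fold change of 1 or more in either direction with an adjusted p below 0.05, which is 0.0821% of the genes tested. The 7 genes higher with IL-1 (0.0575%) were C3, Csf1, Icam1, Cxcl10, Ifit1, Cxcl2 and Abcc8, and the 3 higher with IL-17A (0.0246%) were Sprr2h, Prnd and Plet1. For each of the 10, all 3 pairs moved the same way and the IL-1 and IL-17A libraries did not overlap, as was the case for 4.55% of all genes tested. The 10 were chosen for large differences in these same libraries, which favors that pattern, so it is no separate support. The median absolute log2 fold change of all tested genes was 0.07. Fold changes are on the log2(RPM + 1) scale, which understates those of weakly expressed genes, and are given ± the SE of limma, which borrows the spread of all genes. For the 10 genes the SE of the 3 pair differences alone ran from 0.02 to 0.37, next to 0.09 to 0.18 in limma, and was the larger for 5 of them. For C3 it was 0.31. Among the other genes named below it was also larger than in limma for some, such as Nos2 (0.386 next to 0.09). For others it was smaller, such as Cxcl16 (0.044 next to 0.068). The p-values of limma rest on 2 residual degrees of freedom for each gene and 42.4 borrowed from all genes. They therefore reflect the pooled spread far more than that of the 3 pairs of a gene. All adjusted p come from limma with the replicate block unless another tool is named. Without the block no gene passed, and 10 did so past the fold limit when p was left unadjusted. Positions of genes on mm10 were taken from GENCODE M21.

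**Figure D2:**
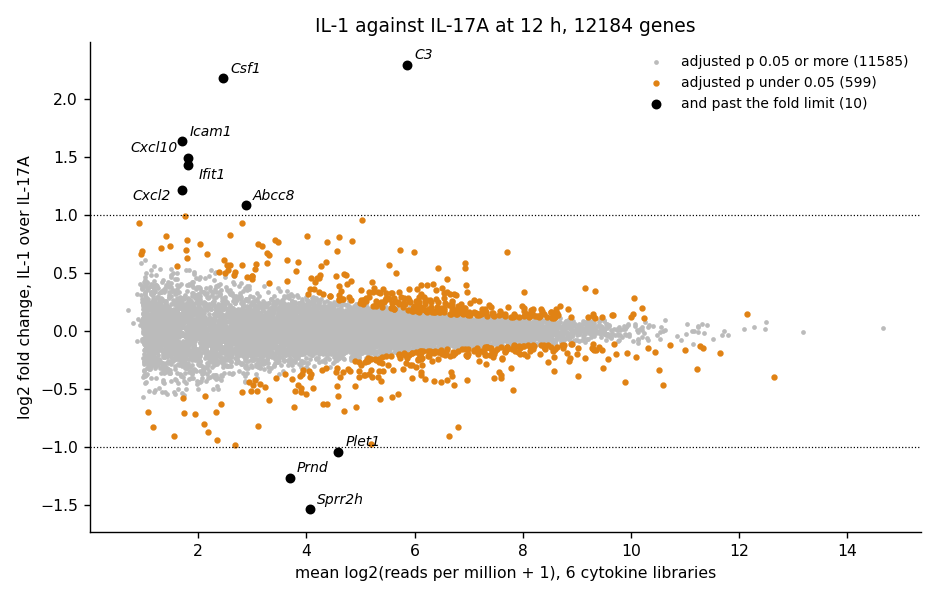
Log2 fold change of IL-1 over IL-17A at 12 h against the mean log2(RPM + 1) of the 6 cytokine libraries, 1 point for each of 12184 genes. Orange points passed the adjusted p and black labelled points also the fold limit (dotted lines at 1 and -1). The 7 labelled genes above the upper line run from 1.09 to 2.30 and the 3 below the lower line from -1.04 to -1.54.

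C3, the central component of the complement cascade (chr17:57203970-57228136), showed the widest gap. Its level was 162, 122 and 106 RPM with IL-1 in numbers 1, 3 and 4, and 21.4, 25.1 and 29.8 with IL-17A. The log2 fold change was 2.30 ± 0.09 (adjusted p = 5.31e-25), or 4.93-fold. Control libraries held 11.3, 5.11 and 14.4, below every cytokine library. Csf1, a growth factor of macrophages (chr3:107741048-107760469), was 8.10, 13.0 and 11.6 with IL-1 and 0.833, 1.98 and 2.15 with IL-17A, a log2 fold change of 2.18 ± 0.15 (adjusted p = 3.01e-15). The IL-17A libraries lay in the range of the controls (0.406 to 1.94) or just above it.

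Icam1 encodes an adhesion molecule that leukocyte integrins bind (chr9:21015985-21028817). Its level was 3.98, 4.99 and 5.34 RPM with IL-1 and 0.357, 1.11 and 1.19 with IL-17A (log2 fold change 1.64 ± 0.17, adjusted p = 1.3e-09). Control libraries held 1.04, 0.705 and 2.52, so that the IL-17A libraries overlapped the controls and the IL-1 libraries did not. Cxcl10, which attracts T cells that carry CXCR3 (chr5:92346638-92348889), stood in the same relation to its controls. It was 4.66, 5.28 and 4.71 with IL-1, 0.952, 1.28 and 1.02 with IL-17A and 1.51, 0.646 and 3.37 in controls. Its log2 fold change was 1.498 ± 0.167 (adjusted p = 6.35e-09).

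Cxcl2, which attracts neutrophils through CXCR2 (chr5:90903871-90905938), was 2.36, 5.04 and 4.88 RPM with IL-1 and 0.535, 1.75 and 1.25 with IL-17A, a log2 fold change of 1.22 ± 0.17 (adjusted p = 1.42e-06). Each cytokine library was above the controls, which held 0.0587 to 0.116, less than the level of 3 reads (0.17 to 0.202). Ifit1, an interferon-induced protein that binds viral RNA (chr19:34640871-34650009), was 9.38, 4.06 and 2.64 with IL-1 and 2.20, 0.350 and 1.25 with IL-17A (1.43 ± 0.18, adjusted p = 1.99e-07). Its controls (1.68, 3.64 and 2.29) overlapped both cytokine groups. Abcc8, a regulatory subunit of ATP-sensitive potassium channels (chr7:46104523-46180033), was 7.83, 11.8 and 9.82 with IL-1 and 3.27, 4.49 and 4.47 with IL-17A (1.09 ± 0.13, adjusted p = 8.04e-08), next to 2.67, 2.47 and 5.43 in controls.

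The 3 genes higher with IL-17A were above the controls in every cytokine library. Sprr2h, one of the small proline-rich proteins of squamous epithelia (chr3:92385685-92387324), was 8.17, 8.58 and 9.82 RPM with IL-1 and 22.3, 34.3 and 27.1 with IL-17A, a log2 fold change of -1.54 ± 0.10 (adjusted p = 3.01e-15), against 1.53 to 3.26 in controls. It belongs to a family of similar genes whose reads could be split between copies, as does Ifit1. Prnd encodes doppel, a relative of the prion protein (chr2:131950861-131956130). It was 5.74, 7.60 and 9.07 with IL-1, 15.7, 23.5 and 18.7 with IL-17A and 1.76 to 3.94 in controls (-1.26 ± 0.11, adjusted p = 2.05e-11). Plet1, a surface protein of epithelial progenitors (chr9:50494525-50505482), was 11.6, 17.4 and 19.4 with IL-1, 23.1, 44.6 and 36.4 with IL-17A and 0.985 to 3.17 in controls (-1.04 ± 0.09, adjusted p = 3.14e-12). Without number 3, Plet1 was no longer called.

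**Figure D3:**
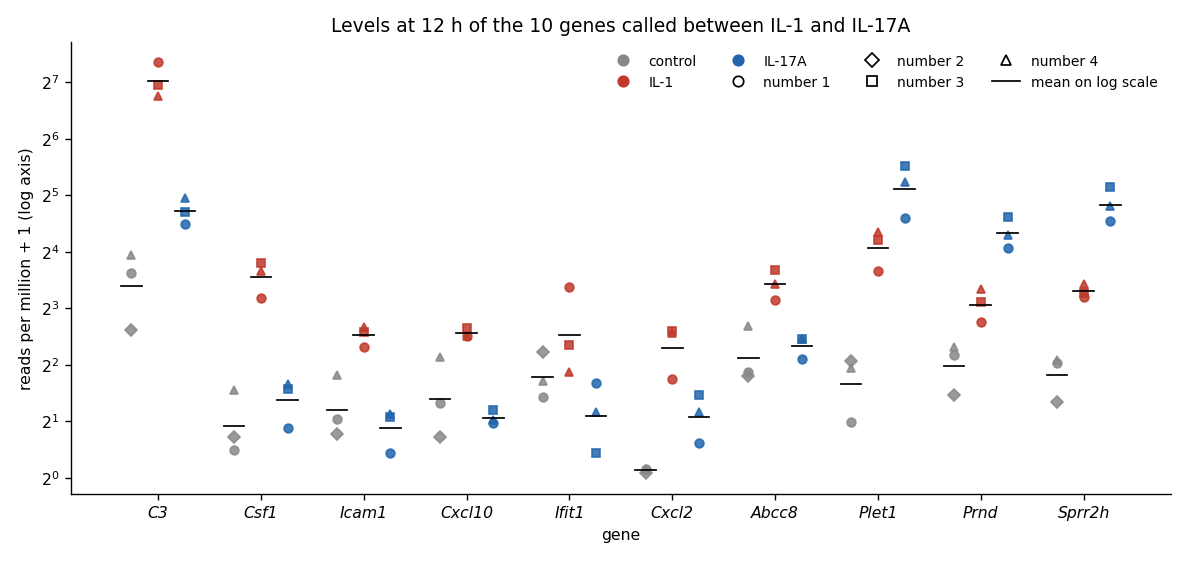
RPM + 1 (log axis) of the 10 genes in each library of 12 h, with gray for controls, red for IL-1 and blue for IL-17A, symbols for the replicate number and lines for the mean on the log scale. For each gene the 3 IL-1 points lie on 1 side of the 3 IL-17A points, and for Plet1, Prnd and Sprr2h all cytokine points lie above the controls.

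Abcc8 (1.09) and Plet1 (-1.04) lay just inside the fold limit. Just outside it, among genes past the adjusted p, lay Krt36, a hair-type keratin (0.998), Tac1, the precursor of substance P (-0.98), Plat, tissue plasminogen activator (-0.98), Ccl20 (0.96) and Saa3 (0.94).

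The stretches before the transcription starts of 5 of these genes are shown because 4 of them carry the letters of motifs that NF-κB and interferon-activated factors are known to bind. They are the 250 bases before the RefSeq start on GRCm38.p6 (mm10), written 5′ to 3′ on the strand of the gene. Capitals mark matches on either strand, with overlapping matches joined, to the consensus κB motif (in Csf1, Cxcl10 and Cxcl2) or to the interferon-stimulated response element, GAAA and GAAA with any 2 bases between (in Cxcl10, and as its reverse complement in Ifit1).
Csf1, chr3:107760470-107760719, minus strand: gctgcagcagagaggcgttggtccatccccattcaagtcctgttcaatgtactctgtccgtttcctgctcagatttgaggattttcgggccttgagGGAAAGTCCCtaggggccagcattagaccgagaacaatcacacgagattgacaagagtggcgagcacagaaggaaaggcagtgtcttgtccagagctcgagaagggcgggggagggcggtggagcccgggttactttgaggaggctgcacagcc
Cxcl2, chr5:90903649-90903898, plus strand: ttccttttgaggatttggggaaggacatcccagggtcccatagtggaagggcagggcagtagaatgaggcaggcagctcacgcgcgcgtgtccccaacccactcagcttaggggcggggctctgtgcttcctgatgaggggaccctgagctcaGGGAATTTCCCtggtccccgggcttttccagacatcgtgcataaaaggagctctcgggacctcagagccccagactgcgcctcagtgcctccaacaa
Cxcl10, chr5:92348890-92349139, minus strand: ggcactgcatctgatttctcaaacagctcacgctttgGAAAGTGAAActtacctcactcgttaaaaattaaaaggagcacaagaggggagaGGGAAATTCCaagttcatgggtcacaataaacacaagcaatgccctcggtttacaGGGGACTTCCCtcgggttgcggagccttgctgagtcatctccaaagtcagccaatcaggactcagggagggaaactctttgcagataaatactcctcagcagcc
Ifit1, chr19:34640639-34640888, plus strand: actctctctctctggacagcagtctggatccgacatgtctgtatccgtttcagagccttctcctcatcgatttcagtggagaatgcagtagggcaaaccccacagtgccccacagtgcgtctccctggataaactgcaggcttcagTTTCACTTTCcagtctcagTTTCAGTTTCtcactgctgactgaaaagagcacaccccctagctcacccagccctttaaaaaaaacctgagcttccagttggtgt
Sprr2h, chr3:92385435-92385684, plus strand: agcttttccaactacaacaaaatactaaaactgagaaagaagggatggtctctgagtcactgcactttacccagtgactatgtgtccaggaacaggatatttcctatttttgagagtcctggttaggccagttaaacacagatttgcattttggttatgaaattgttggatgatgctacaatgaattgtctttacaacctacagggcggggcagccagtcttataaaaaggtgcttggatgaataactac
The κB match of Csf1 begins 154 bases before the start and that of Cxcl2 97 bases before it. Cxcl10 has κB matches 159 and 104 bases before the start and the response element 213 bases before it. Ifit1 has the response element at 104 and 85 bases. Sprr2h is printed as the called gene with the largest difference in favor of IL-17A, and its window holds neither motif. No match was found in the windows of C3, Icam1, Plet1 or Prnd either, which says only that these letters are not in these windows. The κB letters searched for were GGGRNNYYCC, with R for A or G, Y for C or T and N for any base. Sites that depart from these letters are missed, so a window without a match may still hold one. Prnd has 2 RefSeq entries, and the first was used. Of the 10 genes 9 had a RefSeq window, 3 of them with the κB consensus and 2 with the response element. Over the windows of all 27025 genes the κB consensus occurred in 7.0% and the response element in 3.0%, and over the 9613 tested genes with a window in 8.5% and 2.5%. A match describes letters, not binding.

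Below the fold limit many more genes differed by small amounts. At an adjusted p under 0.05 alone, 599 genes (4.92% of those tested) passed, 330 higher with IL-1 (2.71%) and 269 higher with IL-17A (2.21%). Their median log2 fold changes were 0.24 and -0.23, and 94 of the 599 differed by at least 0.5. The split between the directions moved with the scaling. With upper-quartile scaling it was 252 higher with IL-1 and 348 higher with IL-17A, with the size factors of the authors 286 and 286, and with edgeR under TMM 298 and 320. DESeq2 kept 198 of the 599. The κB consensus occurred in the windows of 41 of 244 genes (16.8%) higher with IL-1 and of 22 of 207 (10.6%) higher with IL-17A, and the response element in 6.1% and 1.4%, shares that are given without a test. The counts that follow use the adjusted p alone, with no fold limit, and are to be read against the 2.71% and 2.21% of all genes. Over 32 gene lists, 103 of 449 tested genes passed. The lists were chosen with earlier results of these data known, which favors a high share, so this share is not independent of the data.

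The NF-κB subunits and feedback genes split between the cytokines. Of 24 tested, 6 were higher with IL-1, 2 were higher with IL-17A and 16 did not pass, and the median log2 fold change was 0.11, beside 0.007 for all genes tested. DESeq2 gave 4 and 1. Relb, the partner of p52, was 72.0, 60.6 and 68.9 RPM with IL-1 and 44.2, 40.5 and 37.6 with IL-17A (log2 fold change 0.70 ± 0.06, adjusted p = 3.87e-12). Nfkb2, the precursor of p52, was 83.5, 77.1 and 77.7 with IL-1 and 46.0, 50.1 and 51.0 with IL-17A (0.69 ± 0.06). For both genes the controls lay between the cytokines, at 52.5 to 58.7 for Relb and 56.4 to 67.1 for Nfkb2. The feedback inhibitors Tnfaip3 (A20, 0.59) and Nfkbia (IκBα, 0.54) were also higher with IL-1, without overlap. Nfkbia was 160.4, 143 and 136 with IL-1, 101, 102 and 97.0 with IL-17A and 63.0 to 70.5 in controls. Nfkb1 (0.25) and Tnip1 (0.20) differed less.

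Nfkbiz went the other way. IκBζ, which it encodes, is a nuclear cofactor of NF-κB. Its level was 78.7, 72.8 and 64.6 RPM with IL-1 and 136, 139 and 131 with IL-17A, against 25.6 to 30.9 in controls. The log2 fold change was -0.91 ± 0.05 (adjusted p = 3.42e-19), and the 3 groups did not overlap. Tnfaip2 was the other gene of the list that was higher with IL-17A (-0.41).

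Of 17 tested genes of the IL-17 receptor pathway, 2 were higher with IL-1 and 2 higher with IL-17A (median 0.06). Zc3h12a, the RNase Regnase-1 that degrades inflammatory mRNAs, was 131, 66.7 and 65.4 RPM with IL-1 and 185, 133 and 131 with IL-17A (log2 fold change -0.82 ± 0.06, adjusted p = 3.01e-15). It was lower with IL-1 in each pair, although number 1 of IL-1 reached the lowest IL-17A library, and controls held 20.2 to 29.9. Cebpd, a C/EBP transcription factor, was also higher with IL-17A (-0.48), while the adaptor Traf3 (0.30) and the kinase Ikbke (0.28) were higher with IL-1. The receptor chains and adaptors looked up by name did not pass. Il17ra was 17.7, 23.4 and 22.6 with IL-1 and 20.8, 25.1 and 25.0 with IL-17A (-0.15 ± 0.08, adjusted p = 0.378), Il17rc differed by 0.02 ± 0.05 (adjusted p = 0.906) and Traf3ip2 by 0.11 ± 0.08 (adjusted p = 0.545). In the IL-1 receptor pathway 1 of 15 tested genes passed, Il1rn, which encodes the receptor antagonist (-0.12), and none passed with DESeq2 or without any 1 of the numbers. Il1r1 was 4.93, 7.54 and 9.07 with IL-1, 6.42, 7.05 and 6.17 with IL-17A and 8.17 to 17.2 in controls (0.08 ± 0.14, adjusted p = 0.839). Il1rap (0.26 ± 0.12, adjusted p = 0.259) and Myd88 (-0.07 ± 0.08, adjusted p = 0.76) did not pass either.

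**Figure D4:**
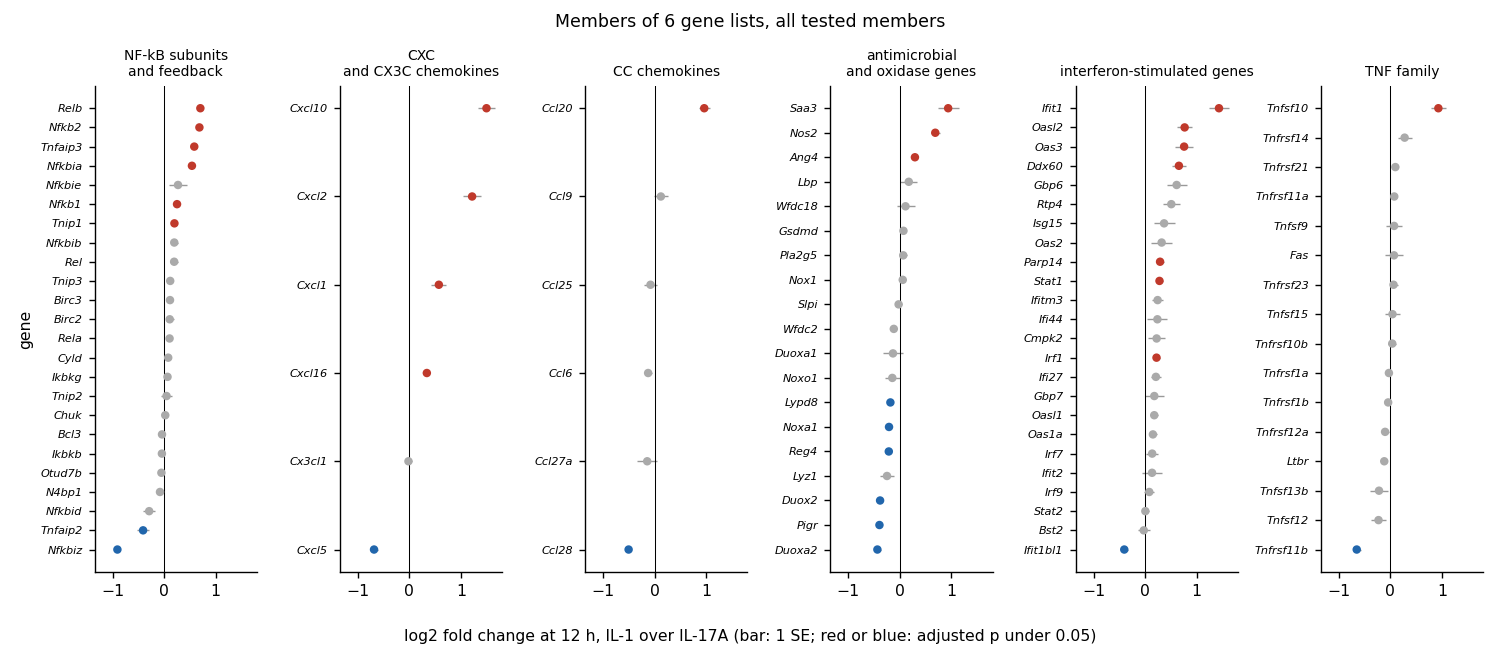
Log2 fold change at 12 h of IL-1 over IL-17A with 1 SE for every tested member of 6 gene lists. Red points were higher with IL-1 and blue points higher with IL-17A at an adjusted p under 0.05, and gray points did not pass. Nfkbiz (-0.91) lies at the opposite end from Relb (0.70) among the NF-κB genes, and Cxcl5 (-0.69) opposite Cxcl10 (1.498) among the chemokines.

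Of 6 tested CXC and CX3C chemokines, 4 were higher with IL-1, 1 was higher with IL-17A and 1 did not pass. Besides Cxcl10 and Cxcl2, IL-1 gave more Cxcl1, another ligand of CXCR2, at 6.14, 6.03 and 6.83 RPM against 3.15, 4.60 and 4.13 with IL-17A (log2 fold change 0.57 ± 0.15, adjusted p = 0.0101), and more of the membrane-bound Cxcl16 (0.34). Cxcl1 did not pass with DESeq2 (adjusted p = 0.291), which gave 3 genes of the list higher with IL-1 and 1 higher with IL-17A. Cxcl5, which also attracts neutrophils, was higher with IL-17A in each pair. It was 9.99, 25.2 and 28.0 with IL-1 and 15.5, 44.2 and 45.8 with IL-17A (-0.69 ± 0.08, adjusted p = 2.93e-08), and number 1 was low in both groups, which overlapped. Of 6 tested CC chemokines 1 was higher with each cytokine. Ccl20, which attracts cells that carry CCR6, was 45.2, 44.0 and 45.0 with IL-1 and 12.6, 30.2 and 29.3 with IL-17A (0.96 ± 0.11, adjusted p = 1.38e-08). Controls held 0.985 to 2.74, below both. The difference of Ccl20 was 1.76 in the pair of number 1 and 0.53 and 0.60 in the others, and it did not pass with DESeq2 (adjusted p = 0.358). Ccl28, a mucosal chemokine, was higher with IL-17A at 225, 282 and 304 against 163, 209.5 and 197 (-0.51 ± 0.04, adjusted p = 2.07e-13).

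Of 16 tested cytokines and growth factors 2 passed, Csf1 and Tnf, both higher with IL-1. Tnf was 40.1, 28.6 and 26.2 RPM with IL-1 and 19.3, 16.6 and 16.0 with IL-17A (log2 fold change 0.81 ± 0.09, adjusted p = 1.3e-09), without overlap, and 7.46 to 10.2 in controls. Within the TNF family and its receptors, 1 of 16 was higher with IL-1 and 1 with IL-17A. They were the death ligand Tnfsf10 (TRAIL, 0.93 ± 0.15, adjusted p = 2.01e-05) and Tnfrsf11b (the decoy receptor osteoprotegerin, -0.65 ± 0.08, adjusted p = 1.48e-08). The pair differences of Tnfsf10 were 1.44, 0.43 and 0.92 in numbers 1, 3 and 4, with an SE of 0.29 over the pairs alone. Il1a, which encodes IL-1α, was 0.608, 1.68 and 1.78 with IL-1 and 0.297, 1.98 and 2.21 with IL-17A, a difference of -0.02 ± 0.19 (adjusted p = 0.982). Of 6 tested complement genes C3 alone passed.

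Of 19 tested antimicrobial and oxidase genes, 6 were higher with IL-17A and 3 higher with IL-1 (median -0.12). Higher with IL-17A were the dual oxidase Duox2 (-0.38), which makes hydrogen peroxide, its maturation factor Duoxa2 (-0.44), the oxidase activator Noxa1 (-0.21), the immunoglobulin transporter Pigr (-0.40), the lectin Reg4 (-0.22) and the flagella-binding Lypd8 (-0.18). Pigr was 6020, 5551 and 5149 RPM with IL-1, 7576, 7099 and 7308 with IL-17A and 3909 to 4630 in controls, without overlap of the 3 groups. Duox2 was 594, 421 and 369 with IL-1 and 594, 603 and 575 with IL-17A (-0.38 ± 0.05, adjusted p = 9.5e-07), so the pair of number 1 hardly differed, and 56.9 to 58.7 in controls. With DESeq2 neither Duox2 (adjusted p = 0.428) nor Nos2 (adjusted p = 0.772) passed. Higher with IL-1 were the inducible nitric oxide synthase Nos2, the acute-phase protein Saa3 and the angiogenin Ang4 (0.29). Nos2 was 312, 261 and 231 with IL-1, 113, 214 and 185 with IL-17A and 4.70 to 27.3 in controls (0.69 ± 0.09, adjusted p = 2.82e-07). Without number 1, 1 gene of the list was higher with IL-1 and 6 higher with IL-17A, and DESeq2 gave 0 and 3.

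Of 22 tested pattern recognition receptors, 4 were higher with IL-1 and 3 higher with IL-17A. Nod2, a sensor of bacterial muramyl dipeptide, was 11.1, 11.9 and 9.64 RPM with IL-1, 6.31, 6.70 and 7.81 with IL-17A and 1.85 to 2.76 in controls (0.58 ± 0.13, adjusted p = 0.00168). Ripk2, the kinase through which NOD2 signals (0.39), the RNA sensor RIG-I (listed as Ddx58, 0.60) and Tlr3 (0.27) were higher with IL-1, and Nlrp10 (-0.51), Naip5 (-0.20) and Pycard (-0.17) higher with IL-17A. DESeq2 gave 1 and 1, and without number 3 or number 4 the count higher with IL-17A was 1.

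Of 24 tested interferon-stimulated genes, 7 were higher with IL-1, 1 was higher with IL-17A (Ifit1bl1, -0.41) and 16 did not pass (median 0.23). The median difference was 0.40 in the pair of number 1, 0.19 in number 3 and 0.03 in number 4. Without number 1 the count higher with IL-1 was 2 of 22, and DESeq2 gave 2 of 24. Oasl2, an oligoadenylate synthetase-like protein, was 42.6, 8.93 and 6.08 RPM with IL-1 and 15.1, 5.01 and 5.43 with IL-17A, so that number 1 was far above the other numbers, while the controls ranged from 2.03 to 16.6. Of the antigen presentation genes 3 of 17 passed, all higher with IL-1, namely Tapbp (0.32 ± 0.04, adjusted p = 1.42e-06), which loads peptide onto class I molecules, Psme2 (0.20) and B2m (0.17). Without number 1, and with DESeq2, 1 passed.

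At 12 h the cell cycle lists gave small differences in 1 direction. Of 24 tested G2/M genes 11 were higher with IL-1 and none was higher with IL-17A (median 0.13), and of 24 S phase genes 5 and none (median 0.13). Top2a, a topoisomerase of dividing cells, was 261, 575 and 587 RPM with IL-1 and 232, 465 and 520.3 with IL-17A (log2 fold change 0.22 ± 0.04, adjusted p = 2.9e-05), and Mki67, the proliferation marker Ki67, differed by 0.13 ± 0.03. Number 1 lay below numbers 3 and 4 in both groups for Top2a. Without number 4 the counts were 4 of the G2/M and 0 of the S phase genes, and DESeq2 gave 1 and 0. At 72 h the medians had the opposite sign, -0.57 for G2/M with 0 of 24 genes above 0 and -0.44 for S phase with 1 of 24 above 0, and none of these passed. In bulk RNA a different share of cells of a kind and a different RNA level per cell cannot be told apart.

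Of 7 tested mucins 1 passed, Muc13, a membrane-bound mucin. It was 1427, 1264 and 1232 RPM with IL-1, 1739, 1579 and 1622 with IL-17A and 682 to 919 in controls (log2 fold change -0.33 ± 0.03, adjusted p = 3.2e-10), without overlap of the groups. Muc2, the gel-forming mucin of goblet cells, was 2377, 3919 and 3734 with IL-1 and 2362, 4044 and 3926 with IL-17A (-0.04 ± 0.03, adjusted p = 0.678), and Muc1 differed by 0.01 ± 0.09 (adjusted p = 0.967). Atoh1, the transcription factor that commits cells to the secretory lineage, differed by 0.01 ± 0.07 (adjusted p = 0.965), and the weakly expressed Muc20 by -0.19 ± 0.19 (adjusted p = 0.701). Of 20 goblet cell genes 1 was higher with IL-1 (Zg16, 0.19) and 3 higher with IL-17A, among them Fcgbp (-0.16) and Tff3 (-0.17). The amino acid transporter Slc16a10 (0.31 ± 0.13, adjusted p = 0.206) and Chp2 (0.15 ± 0.06, adjusted p = 0.149) did not pass. Of 23 tested absorptive colonocyte genes 6 were higher with IL-1, among them Guca2a (guanylin, 0.40) and Car2 (0.20), and 3 higher with IL-17A, among them Car4 (-0.55). Without number 4 the count higher with IL-1 was 2 of 24, without number 3 it was 3 of 23, and with DESeq2 2. None of 13 tested enteroendocrine and 4 tested tuft cell genes passed, and none of 18 AP-1 and immediate early genes.

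Proteases and prostaglandin genes held a few differences. Plat was 12.6, 33.3 and 36.9 RPM with IL-1, 28.0, 63.2 and 71.2 with IL-17A and 6.81 to 20.5 in controls (log2 fold change -0.98 ± 0.07, adjusted p = 1.22e-14), lower with IL-1 in each pair. Plaur, the urokinase receptor, was also higher with IL-17A (-0.43), whereas Plau, urokinase itself, was higher with IL-1 at 0.608, 1.97 and 2.18 against 0.357, 0.757 and 0.509 (0.69 ± 0.20, adjusted p = 0.0331). Ptgs2, the inducible cyclooxygenase, was 9.86, 67.2 and 82.4 with IL-1 and 19.5, 102 and 94.0 with IL-17A (-0.57 ± 0.08, adjusted p = 3.43e-07), and Hpgd, which inactivates prostaglandins, was higher with IL-1 (0.36). Neither passed with DESeq2 (adjusted p = 0.293 and 0.0602), and Plau was given no adjusted p by DESeq2 and fell below the level for testing without number 3 or number 4. Of 15 stem cell and Wnt target genes 2 passed, both higher with IL-1. They were Ascl2 (0.83 ± 0.17, adjusted p = 0.000675), a factor of intestinal stem cells, and Cd44 (0.45). The pair differences of Ascl2 were 0.70, 0.20 and 1.6 in numbers 1, 3 and 4, and it did not pass with DESeq2 (adjusted p = 0.664). DESeq2 and the fit without number 4 each gave 1 gene.

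The remaining lists gave few calls. Of 20 tested repair and squamous-like genes 3 were higher with IL-1 and 4 higher with IL-17A, among them Ly6d (-0.39), while DESeq2 gave 1 and 2. Of 17 adhesion and junction genes, Icam1 and the claudin Cldn4 (0.17) were higher with IL-1, and 2 were higher with IL-17A, among them the claudin Cldn8 (-0.38), while DESeq2 gave 1 and 2. Of 12 iron and acute phase genes, the metalloreductase Steap4 was higher with IL-1 (0.36) and the transferrin receptor Tfrc higher with IL-17A (-0.17). Of 14 STAT3 and SOCS genes 1 passed in each direction, with Il6st, the shared receptor gp130, higher with IL-1 (0.32), and the other did not pass with DESeq2. Of 20 gasdermin and cell death genes Gsdmc4 passed, higher with IL-17A (-0.34).

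Against the same 3 control libraries, without a block, IL-1 gave 6 called genes of 12249 (0.0490%), namely Ccl20, C3, Duox2, Nod2, Nfkbiz and Nfkbia, and IL-17A gave 5 of 12237 (0.0409%), namely Duox2, Sprr2h, Zc3h12a, Nfkbiz and Ceacam10, a CEACAM family member that was named after its values were seen. All were higher with the cytokine. The 2 comparisons share their controls, and the values are therefore set side by side without a test between them. For C3 the log2 fold change was 3.62 ± 0.35 with IL-1 (adjusted p = 0.0432) and 1.32 ± 0.34 with IL-17A (adjusted p = 0.772). Csf1 had 2.63 ± 0.32 (adjusted p = 0.0836) and 0.45 ± 0.35 (adjusted p = 0.882), and Icam1 1.32 ± 0.30 (adjusted p = 0.693) and -0.32 ± 0.34 (adjusted p = 0.889). Nfkbiz had 1.35 ± 0.13 (adjusted p = 0.0432) with IL-1 and 2.25 ± 0.11 (adjusted p = 0.00138) with IL-17A. Sprr2h had 1.48 ± 0.24 (adjusted p = 0.233) and 3.02 ± 0.26 (adjusted p = 0.0304), and Zc3h12a 1.71 ± 0.29 (adjusted p = 0.301) and 2.53 ± 0.19 (adjusted p = 0.0189). With a block on the numbers shared with the controls the counts were 69 and 53. That fit compares numbers 1 and 4 alone, and the time of control number 4 is uncertain. It left 1 residual degree of freedom for each gene and took the spread wholly from all genes, so these higher counts are not stronger evidence. With only control number 1, whose reads equal those of no control of 72 h, 2 and 1 genes were called, the single control being assumed to vary like the cytokine libraries.

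After 72 h the same direct comparison gave no called gene among 12184 tested by limma (23 at an unadjusted p under 0.05 with the fold limit), while DESeq2 gave 2 and edgeR 0. Of the 10 genes called at 12 h, 8 had the same direction at 72 h and 9 a smaller difference, the exception being Plet1. The 10 were chosen for large differences at 12 h, so the choice alone tends to make them smaller in other libraries. Of the 599 genes past the adjusted p at 12 h, 591 were tested at 72 h and 235 of these (39.8%) had the same direction. The share over all genes tested at both times was not counted, so the 39.8% is not a result about these genes. C3 was 162, 279 and 209 RPM with IL-1 and 76.0, 72.3 and 114 with IL-17A in numbers 1, 2 and 3, a log2 fold change of 1.29 ± 0.21 (adjusted p = 0.806, unadjusted p = 0.00101 from limma), and the groups did not overlap. Csf1 was 4.12, 6.03 and 2.05 with IL-1 and 1.91, 4.26 and 1.90 with IL-17A (0.44 ± 0.24, adjusted p = 0.806), higher in each pair but overlapping. Plet1 was 117, 17.0 and 28.8 with IL-1 and 130, 130.1 and 294 with IL-17A (-2.11 ± 0.59, adjusted p = 0.806), so that the pair of number 1 differed far less than the others. Nfkbiz was 144, 85.2 and 83.4 with IL-1 and 170.2, 176 and 222 with IL-17A (-0.89 ± 0.22, adjusted p = 0.806), without overlap. Ifit1 (-0.89 ± 0.53) and Abcc8 (-0.16 ± 0.31) had the opposite sign to 12 h.

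The difference between the times was tested directly on 12239 genes and none passed in limma (56 at an unadjusted p under 0.05 with the fold limit), while DESeq2 called 1. Csf1 had a log2 difference between the times of 1.75 ± 0.25 (limma unadjusted p = 0.000152, adjusted p = 0.632). C3 differed by 1.01 ± 0.33 (adjusted p = 0.632) and Nfkbiz by -0.02 ± 0.27 (adjusted p = 0.983). That limma passed no gene does not show that the 12 h differences stayed alike.

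**Figure D5:**
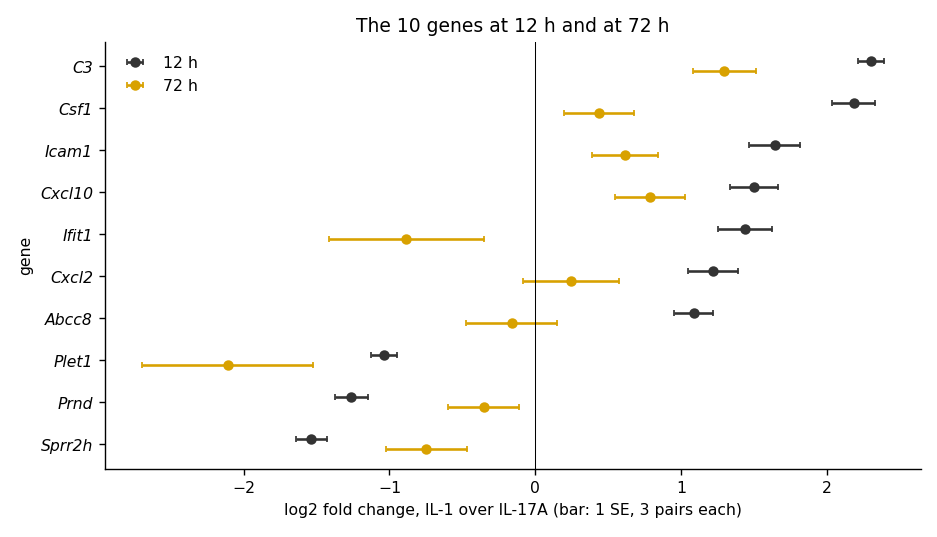
Log2 fold change of IL-1 over IL-17A with 1 SE at 12 h (black) and 72 h (yellow) for the 10 genes called at 12 h, from 3 pairs at each time. The error bars of 72 h are wider, and 8 of the 10 values of 72 h lie on the same side of 0 as those of 12 h, Ifit1 and Abcc8 being the exceptions.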

How the data were processed

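RNA from wild-type mouse colonic organoids was sequenced by the authors with a SMARTER mRNA kit, aligned to mm10 with STAR 2.5.3 and normalized with DESeq2 1.28.1. The tool that counted reads per gene is not given in the sources used here, nor whether strand was used. The deposited values are a signal, gene counts divided by 1 size factor per library. Whole reads were recovered from the steps of the low values in 24 columns (100% of values whole within 0.1), and each library was scaled to reads per 1000000 (RPM) over its full table. The 12 h tables of IL-1 and IL-17A were joined on gene name (14467 genes in both, 185 and 163 in 1 of them). The 0 value columns without a sample, and the tables of sorted cells, did not enter.

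Genes with a mean of at least 1 RPM were tested on log2(RPM + 1) with limma 3.58.1 (trend, R 4.3.3) and Benjamini-Hochberg adjustment, with the replicate number as a block of 3 levels. Genes were called at an adjusted p below 0.05 with a log2 fold change of 1 or more in either direction. The numbers come from the labels. The deviations of same-numbered libraries from their group means correlated at 0.92, 0.72 and 0.77 at 12 h and at 0.63, 0.49 and 0.80 at 72 h, so the numbers were taken to pair the libraries. At 12 h IL-1 number 3 correlated with IL-17A number 4 at 0.73 and the reverse at 0.72, so the pairing does not tell numbers 3 and 4 apart, and a block of 2 levels was also run. The scripts were tested on simulated data. Alternatives were edgeR 4.0.16 and DESeq2 1.42.0 on the recovered reads, other scalings, pseudocounts and filters, no block, and leaving out each number.

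Named genes were, in each direction, the 12 largest differences among called genes whose libraries do not overlap, called members of the gene lists, and a set of receptor, adaptor, mucin and transporter genes whatever their values (Muc5b had no row in the joined table). List members past the adjusted p alone, genes next to the fold limit and Il1a were added to the named genes after the values were seen. Where fewer than 5 genes were called in a direction, the 12 of smallest unadjusted p past the fold limit were taken. The members and lists were chosen with earlier results of these data known. Promoter windows were read from RefSeq by gene symbol.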

Additional observations from a re-analysis of the deposited data

Results flagged for a closer look

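Genes with a row in only 1 of the 12 h tables did not enter the comparison of the cytokines, and among 348 such genes 2 were above every control library with a mean above 1 RPM. Lcn2, which encodes lipocalin-2, a protein that binds bacterial siderophores, had a row in the IL-1 table only. Its mean was 1.48 RPM (reads per 1000000), with 1.89, 1.28 and 1.26 in numbers 1, 3 and 4 and at most 0.0587 in the controls. H2-M2, a nonclassical class I gene, also had a row in the IL-1 table only, with a mean of 1.47 (1.69, 1.22 and 1.49) against at most 0.411 in the controls. A missing row is not a level of 0, so neither gene was compared with IL-17A. Both tables hold the same controls, so having a row in only 1 of them depends on the cytokine libraries, which can favor levels above the controls.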

How the results depend on the processing

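At 12 h, 10 genes were called. The count was 32 with a pseudocount of 0.1, 3 with a pseudocount of 5 (C3, Csf1 and Sprr2h), 6 with a mean of at least 5 RPM, 31 with edgeR under TMM and 31 under DESeq2 size factors, 15 with DESeq2, and 11 to 18 with each number left out. The 10 genes stayed called under both edgeR fits, DESeq2, upper-quartile scaling, the size factors of the authors, a pseudocount of 0.1, no filter, and without number 1 or 4, and 9 of them without number 3. With a mean of at least 5 RPM, Icam1, Cxcl10, Cxcl2 and Ifit1 fell below the level for testing, and the other 6 stayed called. Without the replicate block, and so without the pairing, 0 genes were called and 0 passed the adjusted p alone, while 10 had an unadjusted p under 0.05 with the fold limit. The count past the adjusted p alone was 599. It was 198 with DESeq2 and 337 to 572 with each number left out, and 428, 377 and 303 of the 599 still passed without numbers 1, 3 and 4. With the reads of numbers 3 and 4 summed, an alternative chosen after seeing the data, 16 genes were called and 362 passed the adjusted p alone. With a block of 2 levels (number 1 against 3 and 4), also chosen then, the same 10 genes were called and 500 passed the adjusted p alone. No named gene past the adjusted p changed sign under the alternatives run, while Il17rc, Il1r1, Muc1, Atoh1, Cx3cl1 and Il1a, which did not pass, did under some of them. The split of the genes past the adjusted p alone, 330 higher with IL-1 and 269 higher with IL-17A, turned to 252 and 348 with upper-quartile scaling, 298 and 320 with edgeR under TMM and 95 and 103 with DESeq2.

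At 72 h the 0 called genes became 2 with DESeq2, 23 at an unadjusted p and 0 to 4 with each number left out (1 without number 1, 4 without number 2). For the difference between the times the 0 became 1 with DESeq2 and 56 at an unadjusted p. Against control, the 6 genes of IL-1 became 2 with a pseudocount of 0.1, 2 and 2 with the edgeR fits, 40 with DESeq2, 69 with a replicate block on the shared numbers 1 and 4, 68 at an unadjusted p, 0 to 6 with 1 library left out and 2 with only control number 1. The 5 genes of IL-17A became 15 with upper-quartile scaling, 49 with DESeq2, 53 with the block, 79 at an unadjusted p, 2 to 7 with 1 library left out and 1 with only control number 1. The causes were not tested. Keeping genes of 1 table as 0 in the other was not run. Depth limits genes near 1 RPM, which rest on 14.8 to 17.7 reads.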

Other observations

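Some weakly listed immune genes had a row in only 1 of the 12 h tables. Il17c encodes an epithelial cytokine of the IL-17 family. It was 0.54, 0.174 and 0.746 RPM with IL-1 in numbers 1, 3 and 4 (mean 0.487), against at most 0.117 in the controls. Il1f9, which encodes IL-36γ, was 0.203, 0.522 and 0.632 with IL-1 (mean 0.452) against at most 0.0572. Cd74, the class II invariant chain, was 0.54, 0.754 and 0.689 with IL-1 (mean 0.661) against at most 0.286. Il1f6, which encodes IL-36α, had a row in the IL-17A table only. It was 0.238, 0.233 and 0.623 with IL-17A (mean 0.365), with 0 in the controls. The lowest of these values lie near the level of 3 reads (0.17 to 0.202 RPM), and the time of control numbers 2 and 4 is uncertain. Of the 348 genes with a row in 1 table, 32 were above every control library. Both tables hold the same controls, so a row in only 1 of them depends on its cytokine libraries, which can favor this pattern. The share among all genes was not counted, so the 32 are not a result about these genes.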
